A study of Homo sapiens with 18 samples.

Results

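The BCL2 family and the receptors of TRAIL were followed through 10 genes, chosen by name from the 57736 genes of the count table: BBC3, PMAIP1, BCL2L11, TNFRSF10A, TNFRSF10B, BCL2, BCL2L1, MCL1, BAX and BAK1. RNA-seq was performed in cells labelled A1847, a human cell line of high-grade serous ovarian cancer, in 3 genotypes, each treated for 8 h with vehicle (ctr) or with 5 μg/ml tunicamycin (TM). Tunicamycin blocks N-linked glycosylation, so that unfolded proteins build up in the endoplasmic reticulum (ER). The genotypes were control cells with both genes intact (WT), cells in which CARM1 was knocked out (koCARM1) and cells in which XBP1 was knocked down (shXBP1), with 3 libraries for each of the 6 groups and 18 in all. CARM1 is an arginine methyltransferase that serves as a transcriptional co-activator, and XBP1 encodes a transcription factor of the unfolded protein response. The study asked how each of them shapes the response to ER stress. The knockout was made with a lentiviral CRISPR vector and puromycin selection and the knockdown with a short hairpin RNA. Whether the knockout cells are a clone, and whether the WT cells carried an empty or scrambled vector, is not stated in the sources used here. The labels number the replicates without saying that they are separate cultures, so the p-values measure only the spread between these libraries, which may be technical.

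The BCL2 family decides whether a cell releases cytochrome c from its mitochondria. BAX and BAK1 form the pores, the pro-survival proteins BCL2, BCL-XL (encoded by BCL2L1) and MCL1 hold them in check, and the BH3-only proteins PUMA (BBC3), NOXA (PMAIP1) and BIM (BCL2L11) counter the pro-survival proteins. TRAIL receptors 1 and 2 (TNFRSF10A and TNFRSF10B, also named DR4 and DR5) start apoptosis at the cell surface through caspase-8. Under lasting ER stress the PERK branch raises the factors ATF4 and CHOP (DDIT3), and BBC3, PMAIP1, BCL2L11 and TNFRSF10B are known for being among the death genes that follow.

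The start regions of BBC3 and PMAIP1 are shown because the main results on BH3-only genes turn on them. RefSeq windows of 300 bases (GRCh38.p14, 250 bases before the annotated start and 50 after it) were found for 7 of the 10 genes. The printed part lies at chr18:59899746-59899995 (plus strand) for PMAIP1 and at chr19:47232668-47232917 (minus strand) for BBC3. The lines give the 250 bases before the start, 5′ to 3′, with capitals marking ACGTCA, a 6-base motif named by the study.
PMAIP1: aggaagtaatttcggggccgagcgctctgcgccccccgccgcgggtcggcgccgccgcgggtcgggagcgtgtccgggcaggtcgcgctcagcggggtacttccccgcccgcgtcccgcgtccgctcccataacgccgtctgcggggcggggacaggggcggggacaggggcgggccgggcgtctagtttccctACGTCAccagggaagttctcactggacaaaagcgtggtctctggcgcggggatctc
BBC3: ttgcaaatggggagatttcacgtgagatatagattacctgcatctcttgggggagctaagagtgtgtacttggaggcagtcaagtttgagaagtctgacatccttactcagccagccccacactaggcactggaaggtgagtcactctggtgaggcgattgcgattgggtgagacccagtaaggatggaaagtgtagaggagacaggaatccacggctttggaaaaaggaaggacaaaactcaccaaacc
ACGTCA was searched on both strands and occurred only in the window of PMAIP1 among the 7 genes, starting 56 bases before the annotated start, and in 7.98% of 35116 RefSeq windows. TGATGNAA, the composite site of ATF4 with C/EBP factors (3.62% of all windows), and TGACGTG, the core of an unfolded protein response element (1.97%), had no match in these windows. Any TGACGTG also holds ACGTCA on the other strand. A match is a description of the letters and not a bound site. The window of PMAIP1 held 42 CpG dinucleotides, that of BBC3 5, BAX 38, BCL2 31, BCL2L11 39 and BAK1 7, and the windows of the BCL2L1 starts 16 and 20, against a median of 14 over all windows.

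The libraries held 9367462 to 13917212 counts, and 17317 genes passed the filter on low counts and were tested, all 10 chosen genes among them. Without the koCARM1 libraries 8 of the 10 would have passed. PMAIP1 and TNFRSF10A entered the test only through the knockout, so that their difference between genotypes was a condition of entry. Levels are given as CPM (counts relative to the library's total, scaled with TMM factors) and differences as log2 fold changes from edgeR's quasi-likelihood test, called when the Benjamini-Hochberg adjusted p over all genes tested was below 0.05. CARM1 stood at 71.6 to 77.7 CPM in the koCARM1.ctr libraries against 160 to 165 in WT.ctr, and XBP1 at 24.1 to 26.5 CPM in shXBP1.ctr against 43.2 to 51.1.

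The koCARM1 libraries stood apart from all others. Across genes, log2 CPM correlated with r of 0.986 to 0.989 between replicates, 0.961 to 0.987 between WT and shXBP1, and 0.730 to 0.775 between koCARM1 and the other 12 libraries. Of 10 epithelial and ovarian markers, EPCAM, KRT8, KRT18, KRT7, PAX8 and MUC1 exceeded 100 counts in every koCARM1 library, but only KRT8 and KRT18 did so in every WT or shXBP1 library. The summed level of the list was 312 to 335 CPM in WT.ctr, 2691 to 2785 in koCARM1.ctr and 133 to 146 in shXBP1.ctr. PAX8, a factor of the Müllerian lineage, was at 0 to 2 counts in the 12 WT and shXBP1 libraries and at 465 to 840 in the 6 koCARM1 libraries. In turn COL1A2 had at most 34 counts in the koCARM1 libraries against at least 6840 elsewhere, while COL1A1 went the other way. Mean COL1A1 was 478.9 CPM in koCARM1.ctr, 14.95 in WT.ctr and 9.53 in shXBP1.ctr. KRT19 was at 0 in all koCARM1 libraries, but it also had only 0 to 4 counts in shXBP1, against 5 to 44 in WT. Of 10 measured markers of immune, endothelial and fibroblast cells, only COL1A1 and COL1A2 exceeded 100 counts in every library of a group. CD3E was at 0 throughout, and the sum was 811 to 891 CPM in WT.ctr, 470 to 508 in koCARM1.ctr and 817 to 863 in shXBP1.ctr. In these markers the koCARM1 libraries differed from the WT and shXBP1 libraries, although the labels give 1 cell line for all 18. Which libraries depart from the labelled line was not tested. The differences move with every comparison of koCARM1 with WT below, interactions included. There an effect of losing CARM1 and a difference in the identity of the cells cannot be told apart.

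In WT cells tunicamycin raised TNFRSF10B and lowered BCL2L11, BCL2, BAX and BAK1, while the other 5 genes were not called. Of all genes tested, 22.0% were called higher and 19.9% lower in that comparison. In koCARM1 cells BBC3, PMAIP1 and TNFRSF10B were higher and BCL2L1 and BAK1 lower with tunicamycin, against 20.6% and 18.8% of all genes. In shXBP1 cells BBC3, PMAIP1 and TNFRSF10B were higher and BCL2L11 lower, against 19.2% and 19.0% of all genes. There PMAIP1, let into the test by the knockout, had 0 counts with vehicle and 5 to 8 per library with tunicamycin. With library totals in place of TMM, 41.3% instead of 52.5% of the calls were higher in WT and 41.5% instead of 52.3% in koCARM1. The numbers of the 10 genes called higher and lower stayed the same under that scaling. The median log2 fold change of the 8 genes measured in all groups was −0.19 in WT and −0.12 in shXBP1. In koCARM1 the median was 0.11 over the 10 genes, which add PMAIP1 (0.47) and TNFRSF10A (0.18), both let into the test by the knockout. That value covers another set of genes and is not comparable with the medians of WT and shXBP1. The median of all genes was 0.00 in each genotype.

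Between genotypes, in koCARM1.ctr against WT.ctr 2 of the 8 genes that did not owe their entry to the knockout were called higher (BCL2L1 and BAK1) and 6 lower, where 37.5% of all genes were called higher and 36.9% lower. With tunicamycin BCL2L1 and BAK1 were again higher and BBC3, TNFRSF10B, BCL2, MCL1 and BAX lower (38.4% and 36.8% of all genes). PMAIP1 and TNFRSF10A were higher in koCARM1 under both treatments, which their entry into the test had fixed. In shXBP1.ctr against WT.ctr TNFRSF10B was higher and BCL2L11 lower (2.07% and 3.03% of all genes). With tunicamycin TNFRSF10B and BAX were higher and MCL1 lower in shXBP1 (6.99% and 8.55%). The WT libraries are shared by the comparisons with koCARM1 and with shXBP1. Library totals in place of TMM moved the median log2 fold change of all genes in koCARM1 against WT from −0.03 to −0.20 with vehicle and from −0.02 to −0.18 with tunicamycin, and the numbers of the 10 genes called did not change in these comparisons. Each library is a pool of cells, so that fewer cells expressing a gene and less RNA per cell cannot be told apart in any of these values.

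**Figure D1:**
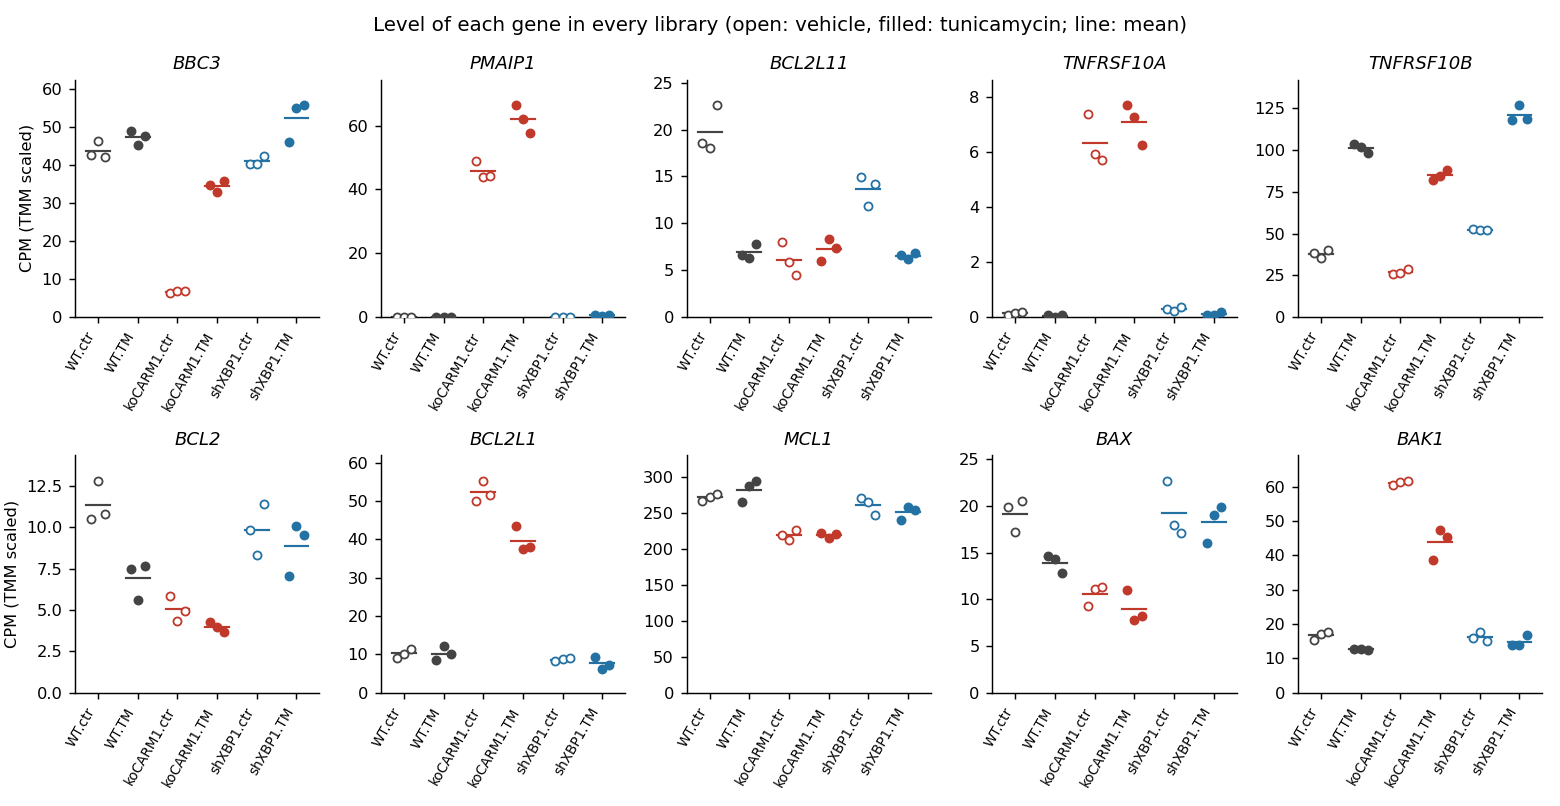
Level of each of the 10 genes in CPM (vertical axes, linear from 0 and separate for each gene) in every library of the 6 groups. Open points are vehicle and filled points tunicamycin libraries, and lines are means of 3. BBC3 lies at 6.21 to 6.96 CPM in koCARM1.ctr and at 32.9 or more in every other group, and PMAIP1 and TNFRSF10A rise from the axis only in koCARM1.

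BBC3 encodes PUMA, a BH3-only protein that binds all main pro-survival proteins (ENSG00000105327, chromosome 19 of GRCh37 from 47724079 to 47736023, minus strand). In WT cells it stood at 42.6, 46.4 and 42.2 CPM with vehicle and at 49.0, 45.1 and 47.6 with tunicamycin. In koCARM1 cells it stood at 6.21, 6.96 and 6.87 with vehicle and at 34.7, 32.9 and 35.8 with tunicamycin. In shXBP1 cells the levels were 40.3, 40.3 and 42.4 with vehicle and 45.9, 55.0 and 55.7 with tunicamycin. The vehicle libraries of the knockout were thus far below all others, the tunicamycin libraries of the knockout lay below those of WT and shXBP1, and the WT groups overlapped. The log2 fold change with tunicamycin was 2.41 in koCARM1 (standard error 0.102, adjusted p = 1.57e-14, edgeR's quasi-likelihood test), a 5.30-fold rise. It was 0.34 in shXBP1 (standard error 0.0789, adjusted p = 0.00297, edgeR) and 0.12 in WT (95% confidence interval −0.03 to 0.28, adjusted p = 0.212, edgeR). The response in koCARM1 exceeded that in WT by 2.26 on the log2 scale (standard error 0.117, adjusted p = 4.98e-11 for the interaction in edgeR). BBC3 and BCL2L11 were the called genes of this interaction, where 10.5% of all genes were called higher and 12.4% lower. Of those calls 45.8% were higher, against 54.6% with library totals, 57.6% without a filter and 56.4% to 58.9% when any WT library was left out. Against WT, BBC3 in koCARM1 fell by 2.76 with vehicle (adjusted p = 9.19e-13) and by 0.45 with tunicamycin (adjusted p = 3.02e-05, edgeR for both). In shXBP1 against WT it was −0.10 with vehicle (95% confidence interval −0.25 to 0.05) and 0.14 with tunicamycin, neither called. Ordered by level, koCARM1.ctr and koCARM1.TM came first and did not overlap with their neighbours, whereas shXBP1.ctr, WT.ctr, WT.TM and shXBP1.TM each overlapped with the next.

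PMAIP1 encodes NOXA, a BH3-only protein that acts mainly on MCL1 (ENSG00000141682, chromosome 18 of GRCh37 from 57567228 to 57571537, plus strand). Its counts were 0, 1 and 1 in WT.ctr and 2, 0 and 2 in WT.TM. In koCARM1 they were 630, 524 and 385 with vehicle and 774, 784 and 725 with tunicamycin, or 48.9, 43.9 and 44.1 CPM and 66.4, 62.2 and 57.6 CPM. In shXBP1 they were 0, 0 and 0 with vehicle and 8, 5 and 6 with tunicamycin. The gene was therefore not detectable in WT at this depth, was low in tunicamycin-treated shXBP1 libraries, and was plainly measured in every knockout library. Scaled to library size, the summed counts of koCARM1 were 951 times those of WT with vehicle (95% counting interval 263 to 7858) and 578 times with tunicamycin (225 to 2123). These exact intervals cover counting error only. Within koCARM1 tunicamycin raised PMAIP1 by 0.47 on the log2 scale (standard error 0.0663, adjusted p = 4.62e-06, edgeR), and the groups did not overlap. Within shXBP1 19 counts in all stood against 0 (adjusted p = 0.00268, edgeR), and the lower 95% counting limit of their ratio was 5.16. Between shXBP1.TM and WT.TM, 19 counts stood against 4, a ratio of 4.71 (95% counting interval 1.56 to 19.0) that was not called (adjusted p = 0.102, edgeR).

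**Figure D2:**
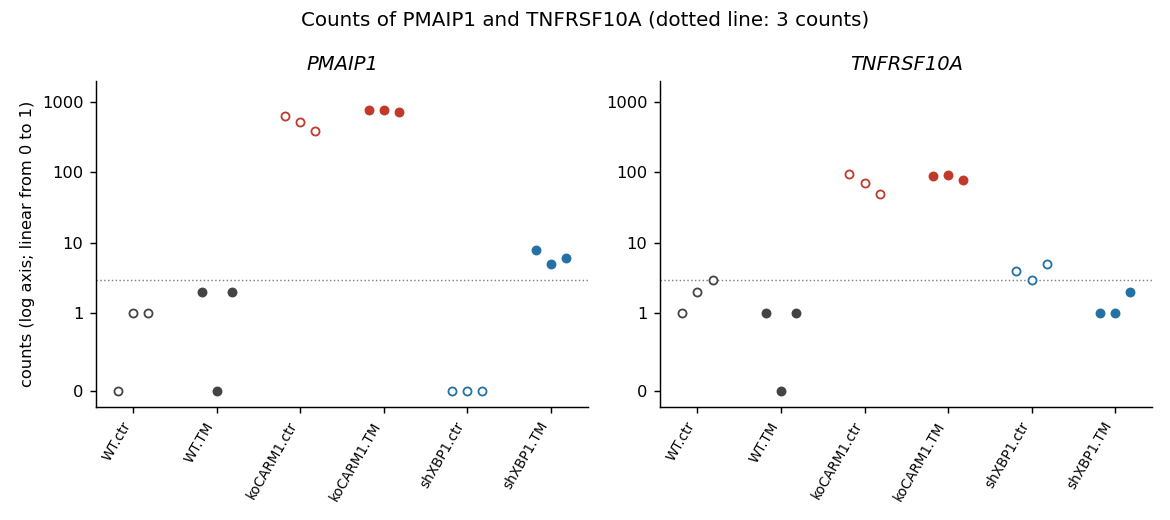
Counts of PMAIP1 (left) and TNFRSF10A (right) in every library, on an axis that is logarithmic above 1 and linear from 0 to 1. The dotted line marks 3 counts, at or below which a gene is taken as not detectable. The 6 koCARM1 libraries lie at 385 to 784 for PMAIP1 and at 50 to 95 for TNFRSF10A, and no other library exceeds 8.

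BCL2L11 encodes BIM, a BH3-only protein that binds every pro-survival protein (ENSG00000153094, chromosome 2 of GRCh37 from 111876955 to 111926021, plus strand). In WT it stood at 18.6, 18 and 22.6 CPM with vehicle and at 6.65, 6.27 and 7.82 with tunicamycin. In koCARM1 it stood at 8.0, 5.87 and 4.47 with vehicle and at 6.01, 8.33 and 7.39 with tunicamycin. In shXBP1 it stood at 14.9, 11.8 and 14.2 with vehicle and at 6.63, 6.15 and 6.87 with tunicamycin. The 3 tunicamycin groups and the vehicle group of the knockout thus shared a low range, and only WT and shXBP1 with vehicle lay above it. With tunicamycin BCL2L11 fell by 1.5 on the log2 scale in WT (standard error 0.137, adjusted p = 1.74e-07, edgeR) and by 1.06 in shXBP1 (standard error 0.139, adjusted p = 1.67e-05, edgeR). In koCARM1 the change was 0.25 (95% confidence interval −0.13 to 0.64, adjusted p = 0.305, edgeR), and the interaction was 1.73 (standard error 0.249, adjusted p = 3.08e-05, edgeR). With vehicle the gene was 1.70 lower in koCARM1 than in WT (adjusted p = 1.59e-07) and 0.55 lower in shXBP1 than in WT (adjusted p = 0.0171, edgeR for both; log2 fold changes −1.70 and −0.55). With tunicamycin the differences from WT were 0.07 (95% confidence interval −0.28 to 0.42; −0.09 with library totals) in koCARM1 and −0.08 in shXBP1, neither called. The call with vehicle in shXBP1 was lost without shXBP1.ctr replicate 2 (log2 fold change −0.45, adjusted p = 0.0955, where all alternatives gave 0.000231 to 0.0955 in edgeR or DESeq2). MIR4435-2HG, a long noncoding RNA with 567 to 3473 counts per library, overlaps BCL2L11 on the other strand. Whether the counting used strand is not stated, so reads of the pair cannot be told apart.

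The TRAIL receptors went separate ways. TNFRSF10B, encoding DR5, rose with tunicamycin in all 3 genotypes, whereas TNFRSF10A, encoding DR4, was not called with tunicamycin in any. Only in the knockout did TNFRSF10A exceed 5 counts in a library. TNFRSF10B (ENSG00000120889, chromosome 8 of GRCh37 from 22877646 to 22926544, minus strand) stood at 38.4, 35.4 and 40.0 CPM in WT.ctr and at 104, 102 and 98.5 in WT.TM. In koCARM1 it rose from 25.6, 26.2 and 29.1 to 82.0, 84.4 and 88.4 CPM. In shXBP1 it rose from 52.7, 52.0 and 52.0 to 118, 127 and 119 CPM. No group overlapped with another, and under each treatment koCARM1 was lowest, WT between and shXBP1 highest. The log2 fold change with tunicamycin was 1.43 in WT (standard error 0.0689, adjusted p = 7.28e-11), 1.70 in koCARM1 (standard error 0.0652, adjusted p = 2.75e-15) and 1.21 in shXBP1 (standard error 0.0543, adjusted p = 1.29e-10, edgeR for all). Against WT the gene was lower in koCARM1 by 0.55 with vehicle (log2 fold change −0.55, adjusted p = 2.81e-05) and by 0.25 with tunicamycin (−0.25, adjusted p = 0.000571, edgeR for both). In shXBP1 it was higher than in WT by 0.45 with vehicle (adjusted p = 0.00160) and by 0.26 with tunicamycin (adjusted p = 0.00386, edgeR for both). The interaction was 0.25 in koCARM1 (standard error 0.0936, adjusted p = 0.0592) and −0.21 in shXBP1 (standard error 0.0832, adjusted p = 0.236, edgeR for both). The former passed the threshold in 12 of 19 alternatives, with adjusted p of 0.0106 to 0.166 over all of them. RHOBTB2, on the other strand, overlaps TNFRSF10B and had 140 to 468 counts per library.

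TNFRSF10A (ENSG00000104689, chromosome 8 of GRCh37 from 23047965 to 23082615, minus strand) had 1, 2 and 3 counts in WT.ctr and 1, 0 and 1 in WT.TM. In koCARM1 it had 95, 71 and 50 counts with vehicle (7.38, 5.95 and 5.73 CPM) and 90, 92 and 79 with tunicamycin (7.72, 7.30 and 6.28 CPM). In shXBP1 it had 4, 3 and 5 counts with vehicle and 1, 1 and 2 with tunicamycin. As for PMAIP1, the knockout libraries alone held more than a few counts. The scaled sums of koCARM1 were 44.5 times those of WT with vehicle (95% counting interval 20.1 to 123) and 132 times with tunicamycin (36.2 to 1097). Tunicamycin changed the gene by 0.18 on the log2 scale in koCARM1 (95% confidence interval −0.14 to 0.51, adjusted p = 0.394, edgeR). In shXBP1 12 counts with vehicle stood against 4 with tunicamycin, a ratio of 0.368 (95% counting interval 0.0866 to 1.22) that was not called. TNFRSF10A-DT, which overlaps the gene on the other strand, had 0 to 18 counts per library.

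**Figure D3:**
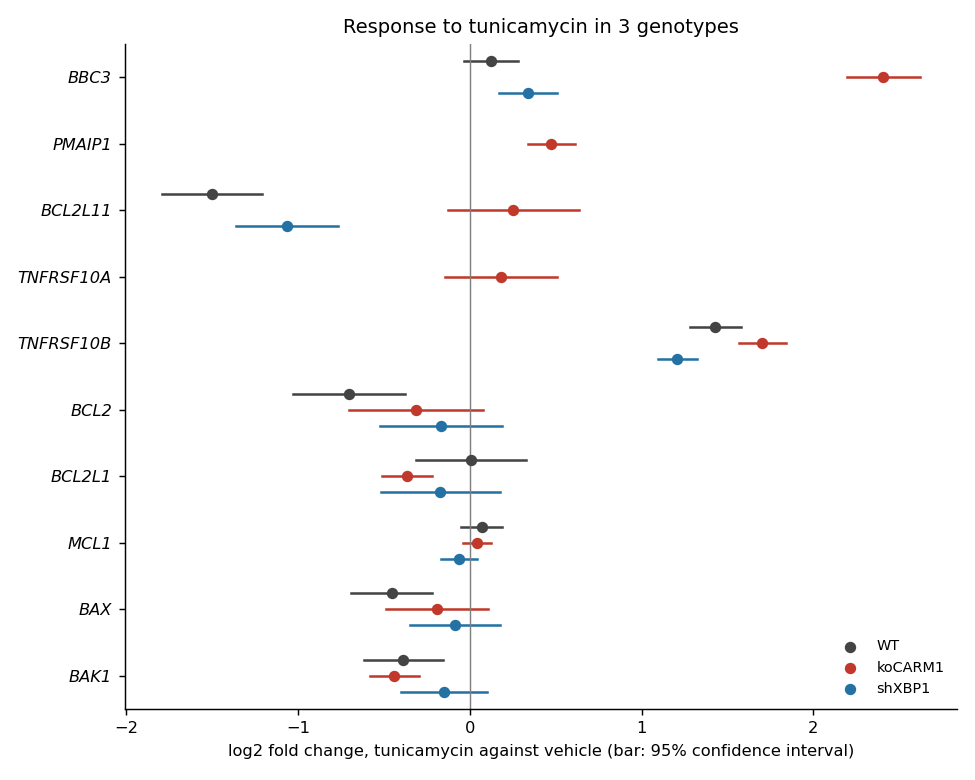
Log2 fold change of the 10 genes with tunicamycin against vehicle (horizontal axis) in WT, koCARM1 and shXBP1. Points are edgeR estimates from 3 against 3 libraries and bars their 95% confidence intervals, left out where a group was not detectable. TNFRSF10B lies right of 0 in all 3 genotypes, BBC3 lies far right in koCARM1 alone, and BCL2L11 lies left in WT and shXBP1 but not in koCARM1.

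Among the pro-survival genes, BCL2 (ENSG00000171791, chromosome 18 of GRCh37 from 60790579 to 60987361, minus strand) stood at 10.5, 12.8 and 10.8 CPM in WT.ctr and at 7.48, 5.61 and 7.67 in WT.TM. In koCARM1 it stood at 5.83, 4.36 and 4.92 with vehicle and at 4.29, 3.97 and 3.66 with tunicamycin. In shXBP1 it stood at 9.86, 8.30 and 11.4 with vehicle and at 7.05, 10.1 and 9.52 with tunicamycin. The shXBP1 groups overlapped, the tunicamycin libraries lay below the vehicle libraries in WT and in koCARM1, and the knockout was lowest under each treatment. BCL2 fell by 0.70 on the log2 scale with tunicamycin in WT (standard error 0.153, adjusted p = 0.00130, edgeR). The change was −0.31 in koCARM1 (95% confidence interval −0.70 to 0.08) and −0.17 in shXBP1 (−0.52 to 0.19), neither called. In koCARM1 against WT the log2 fold change was −1.22 with vehicle (adjusted p = 3.86e-06) and −0.80 with tunicamycin (adjusted p = 0.000901, edgeR for both).

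BCL2L1, encoding BCL-XL (ENSG00000171552, chromosome 20 of GRCh37 from 30252255 to 30311792, minus strand), was higher in the knockout. It stood at 9.05, 10.2 and 11.5 CPM in WT.ctr and at 8.57, 12.1 and 10 in WT.TM. In koCARM1 it stood at 50.0, 55.3 and 51.6 with vehicle and at 43.5, 37.4 and 38.1 with tunicamycin. In shXBP1 it stood at 8.21, 8.80 and 8.99 with vehicle and at 9.45, 6.23 and 7.37 with tunicamycin. Every knockout library lay above every other library. The log2 fold change of koCARM1 against WT was 2.30 with vehicle (standard error 0.0967, adjusted p = 5.72e-12), a 4.93-fold difference, and 1.96 with tunicamycin (standard error 0.114, adjusted p = 5.51e-10, edgeR for both). Tunicamycin lowered it by 0.37 in koCARM1 (log2 fold change −0.37, adjusted p = 0.000215, edgeR). In WT the change was 0.01 (95% confidence interval −0.31 to 0.33), and 6 of 7 other settings that used all libraries gave values below 0, as low as −0.09. In shXBP1.TM against WT.TM the change was −0.40 (adjusted p = 0.151, edgeR), and it passed the threshold without shXBP1.TM replicate 1 (log2 fold change −0.59, adjusted p = 0.0465, with 0.0465 to 0.431 over all alternatives). The interaction in koCARM1 was −0.39 (adjusted p = 0.0853, edgeR).

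MCL1 (ENSG00000143384, chromosome 1 of GRCh37 from 150533371 to 150552214, minus strand), a pro-survival gene whose protein turns over rapidly, stood at 267, 272 and 277 CPM in WT.ctr and at 265, 288 and 295 in WT.TM. In koCARM1 it stood at 220, 212 and 226 with vehicle and at 223, 216 and 221 with tunicamycin. In shXBP1 it stood at 271, 265 and 247 with vehicle and at 241, 259 and 254 with tunicamycin. Within each genotype the treatments overlapped, and the knockout lay below the other genotypes. The log2 fold change with tunicamycin was 0.07 in WT (95% confidence interval −0.05 to 0.19), 0.04 in koCARM1 (−0.04 to 0.12) and −0.06 in shXBP1 (−0.17 to 0.04), none called. The first and second turn to −0.02 with library totals in place of TMM. In koCARM1 against WT it was −0.36 with vehicle (adjusted p = 2.99e-06) and −0.36 with tunicamycin (adjusted p = 7.50e-06, edgeR for both). In shXBP1.TM against WT.TM it was −0.17 (adjusted p = 0.0353, edgeR). That call was lost without WT.TM replicate 2 or 3 or without any of the shXBP1.TM libraries (log2 fold changes −0.16, −0.14, −0.14, −0.19 and −0.18), with adjusted p of 0.00653 to 0.183 over all alternatives in edgeR or DESeq2. ADAMTSL4, on the other strand, overlaps MCL1 and had 27 to 559 counts per library.

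The pore-forming genes took opposite sides between genotypes. BAX (ENSG00000087088, chromosome 19 of GRCh37 from 49458072 to 49465055, plus strand) stood at 19.9, 17.2 and 20.5 CPM in WT.ctr and at 14.6, 14.3 and 12.8 in WT.TM. In koCARM1 it stood at 9.32, 11.1 and 11.3 with vehicle and at 11, 7.78 and 8.26 with tunicamycin. In shXBP1 it stood at 22.7, 18 and 17.1 with vehicle and at 16.0, 19.0 and 19.9 with tunicamycin. Only in WT did the treatments not overlap, and the knockout libraries lay below all others. BAX fell by 0.45 on the log2 scale with tunicamycin in WT (adjusted p = 0.00338, edgeR), against −0.19 (95% confidence interval −0.49 to 0.11) in koCARM1 and −0.09 (−0.35 to 0.18) in shXBP1, neither called. In koCARM1 against WT it was −0.91 with vehicle (adjusted p = 4.15e-06) and −0.62 with tunicamycin (adjusted p = 0.000820, edgeR for both). In shXBP1.TM against WT.TM it was 0.39 (adjusted p = 0.0319, edgeR). That call was lost in DESeq2 (adjusted p = 0.0571) and without WT.TM replicate 2 or 3 or shXBP1.TM replicate 2 or 3 (log2 fold changes 0.41, 0.34, 0.36 and 0.33), with adjusted p of 0.0148 to 0.142 over all alternatives.

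BAK1 (ENSG00000030110, chromosome 6 of GRCh37 from 33540324 to 33548070, minus strand) stood at 15.5, 17.0 and 17.7 CPM in WT.ctr and at 12.8, 12.8 and 12.5 in WT.TM. In koCARM1 it stood at 60.4, 61.3 and 61.7 with vehicle and at 38.7, 47.5 and 45.3 with tunicamycin. In shXBP1 it stood at 16.0, 17.8 and 15.2 with vehicle and at 13.8, 13.8 and 16.8 with tunicamycin. All knockout libraries lay above all others, and tunicamycin libraries lay below vehicle libraries in WT and koCARM1. The log2 fold change of koCARM1 against WT was 1.82 with vehicle (standard error 0.0771, adjusted p = 6.41e-12) and 1.79 with tunicamycin (standard error 0.0955, adjusted p = 1.87e-10, edgeR for both). With tunicamycin BAK1 fell by 0.39 in WT (adjusted p = 0.00853) and by 0.44 in koCARM1 (adjusted p = 1.79e-05, edgeR for both). In shXBP1 the change was −0.15 (95% confidence interval −0.40 to 0.10). The processed copies BAK1P1 and BAK1P2 had 0 to 7 and 0 counts per library.

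**Figure D4:**
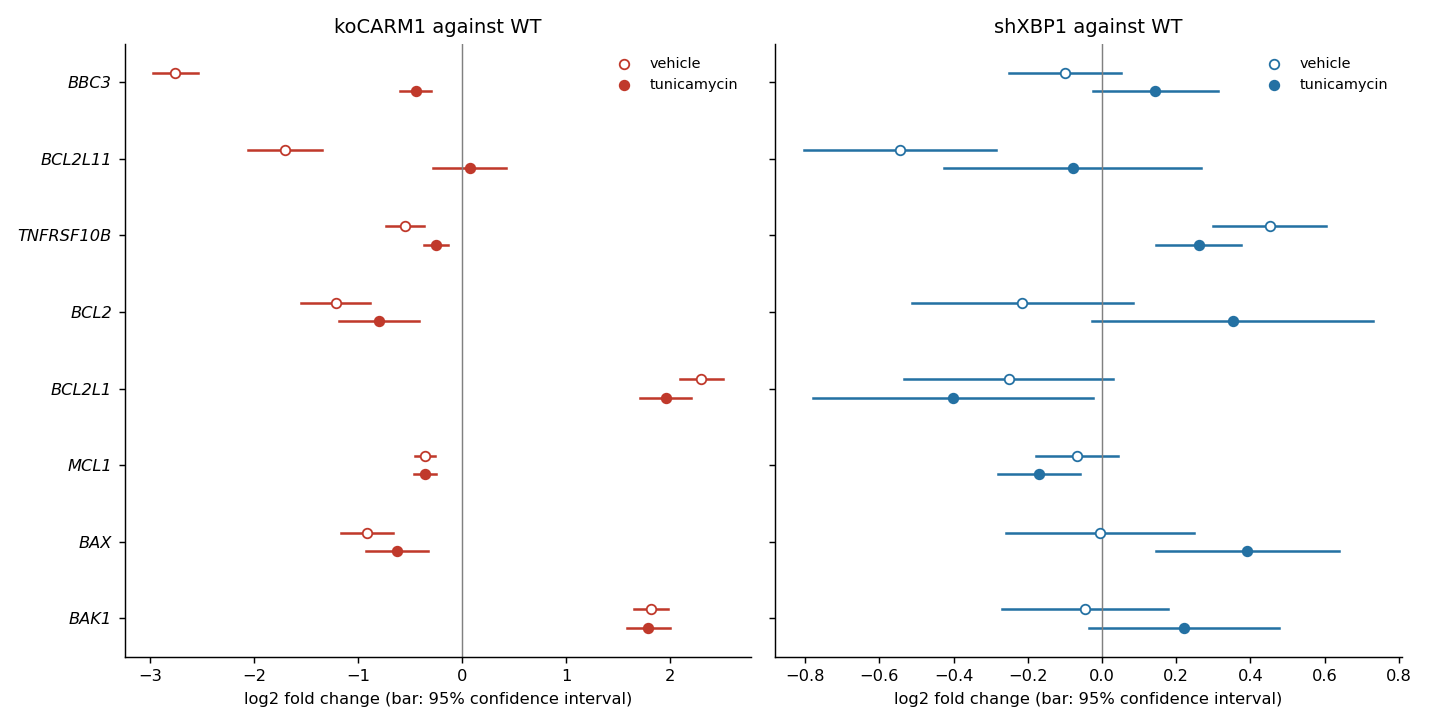
Log2 fold change against WT (horizontal axes, which differ in range) of the 8 genes detectable in all groups, for koCARM1 (left) and shXBP1 (right). Open points are vehicle, filled points tunicamycin, and bars 95% confidence intervals. In koCARM1 BCL2L1 and BAK1 lie at 1.79 or more and BBC3 moves from −2.76 to −0.45, whereas in shXBP1 TNFRSF10B alone lies right of 0 under both treatments.

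For the interaction of shXBP1 with tunicamycin 0 of the 10 genes were called in edgeR, where 0.364% of all genes were called higher and 1.67% lower (17.8% of the calls higher, or 29.3% with library totals). At an unadjusted p below 0.05 edgeR had 4 genes higher (PMAIP1, BCL2L11, BCL2 and BAX) and 1 lower (TNFRSF10B), and DESeq2 called 0 after adjustment. In the koCARM1 interaction 0 of the 10 genes were called lower in edgeR and in DESeq2, with 1 (BCL2L1) at an unadjusted p below 0.05.

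Beyond the 10 genes, HRK rose and BID fell in every genotype among the BH3-only genes. Of 5 other BH3-only genes, 4 were tested. HRK rose with tunicamycin from 2 to 5 counts to 70 to 134 counts per library in WT (log2 fold change 4.93, adjusted p = 1.30e-08), from 7 to 28 to 59 to 68 in koCARM1 (1.67, adjusted p = 1.83e-05) and from 3 to 5 to 82 to 94 in shXBP1 (4.47, adjusted p = 9.83e-09, edgeR for all). Its interaction in koCARM1 was −3.27 (adjusted p = 0.000137, edgeR). BID, whose product links caspase-8 to the mitochondria, fell by 0.64, 0.39 and 0.76 on the log2 scale in WT, koCARM1 and shXBP1 (adjusted p = 0.000586, 4.35e-05 and 6.75e-06, edgeR). BAD and BIK, named after their values were seen, were not called with tunicamycin in any genotype. Against WT, all 4 were higher in koCARM1 with vehicle (37.5% of all genes). With tunicamycin 3 were higher and HRK was lower (log2 fold change −0.71, adjusted p = 0.00703, edgeR), against 38.4% and 36.8% of all genes. BIK had 0 to 6 counts per library in WT and 19 to 28 in koCARM1. Its entry into the test through the knockout had fixed its direction. Of 8 other pro-survival and effector genes, 1 was higher and 2 lower with tunicamycin in WT, namely BCL2L2 (0.60) against BOK (−0.74) and BCL2L12 (−0.36). In koCARM1 2 were higher and 1 lower, and in shXBP1 2 were higher and 2 lower. Of all genes, 22.0% were higher and 19.9% lower in WT, 20.6% and 18.8% in koCARM1, and 19.2% and 19.0% in shXBP1. Against WT, 3 of the 8 were higher and 1 lower in koCARM1 with vehicle (37.5% and 36.9% of all genes). With tunicamycin 5 were higher and 1 lower (38.4% and 36.8% of all genes). Among them were the pro-survival genes BCL2A1, with 11 to 21 counts per library in koCARM1.ctr against 0 to 1 in WT.ctr, and BCL2L10, with 4 to 16 against 0, both named after their values were seen. Outside koCARM1 both had at most 2 counts per library. As for PMAIP1, their entry into the test through the knockout had fixed their direction.

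Of 8 genes of the TRAIL ligand, decoy receptors and other death receptors, 6 were tested. With tunicamycin 1 was higher and 1 lower in WT (22.0% and 19.9% of all genes) and again in shXBP1 (19.2% and 19.0%). In koCARM1 0 were higher and 4 lower in edgeR (20.6% and 18.8% of all genes). TNFRSF1A, a receptor of TNF, rose from 49.8 to 83.4 CPM in WT (log2 fold change 0.76, adjusted p = 1.10e-07, edgeR) and from 52.3 to 87.1 in shXBP1 (0.73, adjusted p = 1.41e-07, edgeR), as TNFRSF10B did. It fell from 130.5 to 85.5 in koCARM1 (−0.57, adjusted p = 2.34e-09, edgeR), with a koCARM1 interaction of −1.35 (adjusted p = 2.48e-10, edgeR). TNFRSF10D, a decoy receptor of TRAIL without a working death domain, fell by 0.36, 0.49 and 0.44 on the log2 scale in WT, koCARM1 and shXBP1 (adjusted p = 0.0183, 0.000402 and 0.00564, edgeR). TNFSF10, the gene of TRAIL itself, had 0 to 4 counts per library and was not tested. In the receptor's signalling complex 1 of 7 genes was higher and 2 lower with tunicamycin in WT, CASP8 at 0.29 against TRAF2 at −0.51 and RIPK1 at −0.48. In koCARM1 2 of the 7 were higher and 1 lower, and in shXBP1 1 was higher and 3 lower. Of all genes, 22.0% were higher and 19.9% lower in WT, 20.6% and 18.8% in koCARM1, and 19.2% and 19.0% in shXBP1. CFLAR, the caspase-8 inhibitor FLIP, named after its values were seen, had a log2 fold change of 0.42 in koCARM1 (adjusted p = 9.71e-09) and 0.25 in shXBP1 (adjusted p = 0.00569), against 0.15 in WT (adjusted p = 0.0735, edgeR for all).

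Further down the pathway, 4 of 13 genes of the apoptosome, the executioner caspases and the inhibitors of apoptosis were higher and 4 lower with tunicamycin in WT, near the 22.0% and 19.9% of all genes. BIRC2, an inhibitor of apoptosis, had the largest called rise of the list (log2 fold change 1.42, adjusted p = 1.16e-11), followed by CASP9 (0.68, adjusted p = 0.00199), and CASP2 had the largest called fall (−1.20, adjusted p = 5.96e-10, edgeR for all). The rise of BIRC2 was smaller in koCARM1 (0.41) and in shXBP1 (0.98), with interactions of −1.04 (adjusted p = 1.41e-09) and −0.44 (adjusted p = 0.00258, edgeR for both). In koCARM1 3 of the 13 were higher and 4 lower (20.6% and 18.8% of all genes), and in shXBP1 4 were higher and 3 lower (19.2% and 19.0%).

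The ATF4 and CHOP arm holds factors known to act upstream of several of the 10 genes. Its genes rose in all genotypes, except that ERO1A was not called in shXBP1 (log2 fold change −0.04). With tunicamycin 9 of 9 were higher in WT (22.0% of all genes), 9 in koCARM1 (20.6%) and 8 in shXBP1 (19.2%). Their median log2 fold changes were 3.38, 2.33 and 2.97 against 0.00 over all genes. DDIT3 rose from 12.2 to 292.7 CPM in WT, from 18.3 to 572.8 in koCARM1 and from 14.2 to 319 in shXBP1 (log2 fold changes 4.61, 5.02 and 4.48, adjusted p = 6.46e-16, 2.15e-24 and 1.88e-15, edgeR). Its interaction in koCARM1 was 0.39 (adjusted p = 0.0187, edgeR). ATF4 rose less in koCARM1 (1.31) than in WT (1.81), with an interaction of −0.52 (adjusted p = 9.97e-07, edgeR), and ATF3 rose by 2.33 against 6.50 (interaction −4.19, adjusted p = 6.01e-10, edgeR). CHAC1 also rose less in the knockout (3.96 against 4.78, interaction −0.84, adjusted p = 0.00177, edgeR). DDIT4, named after its values were seen, rose more there (4.35 against 2.19). Of the 9 genes 2 were called higher and 5 lower in the koCARM1 interaction (10.5% and 12.4% of all genes). TRIB3 rose by 4.73 in WT, 4.88 in koCARM1 and 5.21 in shXBP1.

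Genes known as targets of p53, among which BBC3, PMAIP1, BAX and TNFRSF10B are also counted in textbooks, were listed without these. Of 12 such genes 2 were higher and 1 lower with tunicamycin in WT, MDM2 at 0.45 and RRM2B at 0.42 against TP53INP1 at −0.37. In koCARM1 3 were higher and 2 lower, and in shXBP1 2 were higher and 2 lower. Of all genes, 22.0% were higher and 19.9% lower in WT, 20.6% and 18.8% in koCARM1, and 19.2% and 19.0% in shXBP1. In koCARM1.ctr against WT.ctr 2 of the 12 were higher and 8 lower (37.5% and 36.9% of all genes), with a median log2 fold change of −0.55 over the 11 detectable in both groups against −0.03 over all genes. With tunicamycin 3 were higher and 6 lower (38.4% and 36.8% of all genes), and the median was −0.07 against −0.02. SPATA18, named after its values were seen, had 0 counts in every koCARM1 library and 36 to 72 in every other, the reverse of PMAIP1. It entered the test only through WT and shXBP1, so that its place among the lower genes was fixed by entry.

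**Figure D5:**
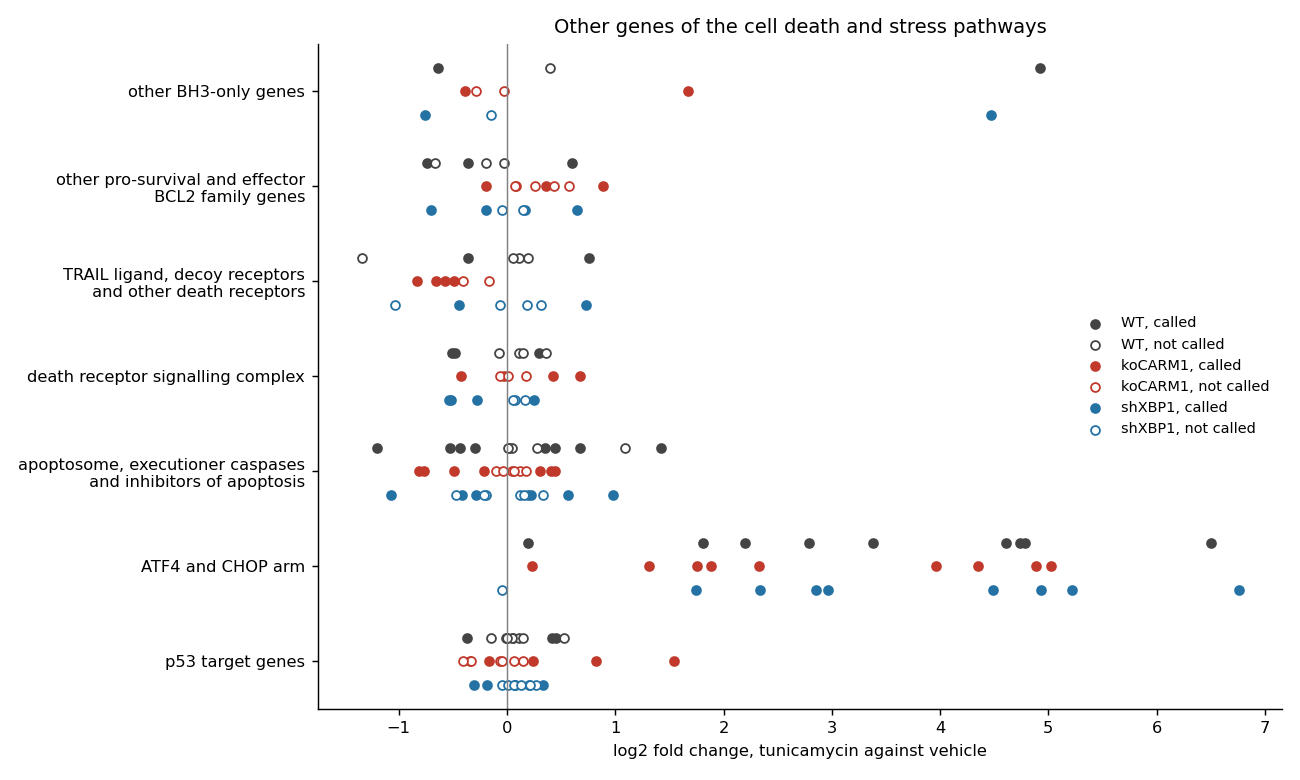
Log2 fold change with tunicamycin against vehicle (horizontal axis) of the genes of 7 further lists (vertical axis) in WT, koCARM1 and shXBP1, for genes detectable in both groups. Each point is a gene, filled where called by edgeR and open where not. The ATF4 and CHOP genes lie right of 0, ERO1A in shXBP1 excepted, and the other lists scatter on both sides.

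Over the 18 libraries, the tested genes whose log2 CPM ran most like BBC3 were NEPRO (Pearson r = 0.957), WASF1 (0.955) and HDAC9 (0.948). For PMAIP1 they were FAM216A (0.994), ZNF430 (0.994) and SCARB2 (0.993), and for TNFRSF10B MTMR4 (0.990), PABPC1L (0.985) and NOP58 (0.984). The libraries fall into separate groups by genotype and treatment, so these values describe a shared order of groups and carry no test.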

How the data were processed

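RNA was sequenced as 3′ libraries (75 nt single reads). The authors aligned reads with bowtie2 to hg19 and estimated expected counts per gene with RSEM. The deposited expected counts were rounded to whole numbers and carried Ensembl identifiers, of which 55501 matched a symbol. Filters and strand in the counting are not given in the sources used here. Libraries were grouped by their labels. Genes passing edgeR's filterByExpr (minimum count 10, 6 groups) were scaled with TMM and compared with edgeR 4.0.16 (quasi-likelihood test, R 4.3.3) over the libraries of each comparison, with Benjamini-Hochberg adjustment over all genes tested and calls at 0.05. Interactions were fitted over 4 groups of 3 libraries. CPM used TMM factors. Where no library of a group exceeded 3 counts, the gene counted as undetectable there and no fitted fold is given. Ratios of summed counts then have exact 95% intervals. Alternatives were DESeq2 1.42.0, other scaling, filters and fits, the replicate number as a block, and leaving out each library. Replicates differed beyond sampling noise (chi-square per degree of freedom 1.84 to 6.89 over 18 pairs). Same-numbered libraries did not deviate together. Named were all 10 genes in every comparison, CARM1 and XBP1, DDIT3, ATF4, ATF3 and TRIB3, of each further list the called genes with the 2 highest and 2 lowest log2 fold changes with tunicamycin in WT, and for 3 genes the 3 with the most similar pattern whose log2 CPM averaged 3 or more. A gene that this rule names is not reported here. The 10 genes and the lists were chosen with earlier results of these data known.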

Additional observations from a re-analysis of the deposited data

Results flagged for a closer look

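The response to tunicamycin differed between koCARM1 and WT for 2 of the 10 genes by the interaction test in edgeR. Of all genes, 10.5% were called higher and 12.4% lower in that test. For BBC3 the difference of the log2 fold changes (koCARM1 minus WT) was 2.26, with 2.41 in koCARM1 and 0.12 in WT, and the alternatives gave 2.21 to 2.37. For BCL2L11 it was 1.73, with 0.25 in koCARM1 and −1.50 in WT, and the alternatives gave 1.58 to 1.98. For both genes the koCARM1 and WT libraries already differed with vehicle and lay closer together with tunicamycin. The koCARM1 libraries also differ from WT in epithelial markers and collagen genes, so that an effect of losing CARM1 and a difference in the identity of the cells cannot be told apart.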

How the results depend on the processing

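Over all alternatives, 1000 values of the 10 genes, those with an undetectable group left out, kept their direction and their side of the threshold, 13 newly passed it, 11 no longer passed it and 32 changed sign. The sign changes concern values near 0 that were not called, and their cause was not tested. For BCL2L1 with tunicamycin in WT the log2 fold change was −0.0012 with DESeq2 size factors, −0.0856 with library totals, −0.0003 in DESeq2, −0.0038 without a filter, −0.0036 with at least 10 counts in every library and −0.0058 with all 18 libraries in one fit. With library totals MCL1 changed by −0.0245 in WT and −0.0190 in koCARM1 with tunicamycin, its koCARM1 interaction was 0.0049, and BCL2L11 in koCARM1.TM against WT.TM was at −0.0912. The interaction of MCL1 was 0.0233 without a filter and 0.0139 with at least 10 counts in every library, and BAX in shXBP1.ctr against WT.ctr was 0.0025 with all 18 libraries in one fit. Leaving out 1 library gave −0.1352 to 0.1046 for BCL2L1 with tunicamycin in WT, −0.1646 to 0.0469 for BAX with tunicamycin in shXBP1, and −0.0409 to 0.1897 for BCL2L11 in koCARM1.TM against WT.TM. In shXBP1 against WT it gave −0.1361 to 0.0771 for BAX and −0.1157 to 0.0078 for BAK1 with vehicle, and −0.1455 to 0.0224 for BCL2L11 with tunicamycin. For the koCARM1 interaction it gave −0.0712 to 0.0570 for MCL1 and −0.1359 to 0.0494 for BAK1.

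With at least 10 counts in every library, PMAIP1 and TNFRSF10A were not tested and 2 instead of 4 members were called higher in koCARM1 against WT under either treatment. PMAIP1 thereby also dropped out of the calls with tunicamycin in koCARM1 and in shXBP1. In shXBP1.TM against WT.TM, DESeq2 called 1 of the members higher instead of 2, and leaving out 1 library gave 1 to 2 higher and 0 to 1 lower. In shXBP1.ctr against WT.ctr it gave 0 to 1 of the members lower. Among all genes, 883 were called in shXBP1.ctr against WT.ctr, 1378 without a filter, 1420 with all 18 libraries in one fit and 435 to 1234 without 1 library. In shXBP1.TM against WT.TM 2691 of all genes were called, and 1523 to 2426 without 1 library. The shXBP1 interaction had 353 of all genes called, 732 without a filter and 236 to 455 without 1 library. Same-numbered libraries did not deviate together (r of −0.0480 to 0.0387 over 21 pairs), so the numbers name libraries only. With the replicate number as a block 7268 of all genes were called with tunicamycin in WT, against 7258 without it, and the numbers of members called did not change in any comparison. At this depth PMAIP1 and TNFRSF10A could not be measured in WT.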
